A study of Mus musculus with 3 samples.

Results

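The genes described here are 10 that serve androgen synthesis in the theca, the steroid-making layer around the ovarian follicle, and its control by luteinising hormone (LH). They are Star, Cyp11a1, Fdx1, Fdxr, Hsd3b1, Cyp17a1, Por, Lhcgr, Insl3 and Mgarp, taken by symbol from the 53465 genes of each count table. Each symbol had a single row, and all 10 had at least 1 count in every library. Single cells came from whole ovaries of C57BL/6 female mice, with 1 library at embryonic day 16.5 (ED16.5, although that library's title gives day 17), 1 at postnatal day 7 (PND7) and 1 at postnatal day 14 (PND14). The labels name no treatment, transgene or allele and do not say how many animals or ovaries went into a library. The study's title concerns oestrogen receptors in the granulosa lineage. For the genes here the design gives a simpler question, which steps of steroid synthesis were found at which age and in which cells.

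Androgen synthesis begins in mitochondria. STAR carries cholesterol to the inner membrane, where CYP11A1 cuts its side chain to make pregnenolone, with electrons passed from FDXR to FDX1. The enzyme HSD3B1 converts pregnenolone to progesterone and related precursors to androgens. CYP17A1, supplied with electrons by POR in the endoplasmic reticulum, carries out the hydroxylase and lyase reactions that give androgens. In the follicle, theca cells make androgens in response to LH through its receptor LHCGR, and granulosa cells turn those androgens into oestrogens. INSL3 is a relaxin-family peptide hormone secreted by theca cells and, in the testis, by Leydig cells. MGARP is a mitochondrial protein abundant in steroid-making tissues.

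The tables held 459, 510 and 585 cell barcodes at ED16.5, PND7 and PND14, of which 456, 509 and 583 were kept. The kept cells carried 8964585, 8735023 and 9053047 UMIs (unique molecular identifiers, each standing for a captured mRNA molecule), with medians of 15090.5, 12224 and 11435 per cell. No barcode was shared between libraries (0 for each pair). Levels are given as CPM (a gene's UMIs over all UMIs of the cells summed, scaled to 1000000), with exact Poisson 95% intervals, and a count of 0 over a whole library allows 3 UMIs, or 0.331 to 0.343 CPM. With 1 library per age no difference was tested, and every interval covers counting error only, not the spread between animals. A whole-library level cannot tell more cells of a type from more RNA per cell.

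All kept cells were clustered together without using the 10 genes or the other listed pathway genes, and 18 of 21 clusters were named from markers that hold none of the 10. A cluster of 41 cells, found in the PND14 library alone, was named steroidogenic-like because 8 of 11 markers of steroid-making cells were at least 2-fold higher there than in the other cells. Among them were Scarb1 (the HDL cholesterol receptor) at 893 CPM against 96.6 CPM in the other PND14 cells, Prlr (the prolactin receptor) at 369 against 16.0 CPM and Aldh1a1 at 2345 against 94.3 CPM. Of the 8, Hsd3b6 rested on 33 UMIs of 1 cell, and of the other 3, Cyb5a was lower than in the other PND14 cells (197 against 380 CPM), Plin2 stood at 103 against 63.4 CPM and Agtr1b at 0. Its leading genes were Bpifb4, Cst8 and Acsbg1. Since the cluster comes from a single library, a cell state of that age and a property of that library cannot be told apart. A separate cluster with the hedgehog targets Hhip, Ptch1 and Gli1 and the theca marker Enpep is called theca-like and held 32 cells at PND7 and 93 at PND14. Steroidogenic-like cells had less of these markers, with Hhip at 21.5 CPM against 113 CPM in theca-like cells of PND14 and Ptch1 at 53.2 against 308 CPM. Of other classes' marker lists, granulosa markers summed to 2452 CPM in the steroidogenic-like cells (15 of 18 genes, with Fst, Irx3 and Fshr at 0), against 463 CPM in theca-like and 10061 CPM in granulosa-like cells of PND14. Stroma markers summed to 1565 CPM (11 of 12 genes), erythroid markers to 461 CPM (5 of 11) and smooth muscle markers to 432 CPM (10 of 12). The endothelial list summed to 48.6 CPM with Tie1 and Flt1 at 0, surface epithelium to 28.3 CPM, immune to 20.4 CPM and germ cells to 3.39 CPM. The part of such RNA in the members' values was not tested. Of adrenal cortex genes, Cyp11b1 and Cyp11b2 were at 0 and Cyp21a1 had 4 UMIs, while Mrap (an accessory protein of melanocortin receptors) had 81 and Hao2 (a peroxisomal oxidase) 112.

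Upstream sequences are shown for the 4 genes whose RefSeq window held TCAAGG, the core of the element bound by the steroidogenic factor NR5A1, because NR5A1 sites are known in promoters of steroidogenic genes and these members were high in the same cells. The table matched 8 of the 10 genes (Star and Cyp17a1 were not matched). Each window runs up to 250 bases before the transcription start on GRCm38.p6, without annotated exons of the gene itself. Exons of other genes were not looked for. The window is printed 5′ to 3′ on the gene's strand and carries the match in capitals, as CCTTGA where the match lies on the opposite strand. The windows are chr3:98859795-98860044 (minus strand) for Hsd3b1, chr9:51963603-51963852 (minus) for Fdx1, chr17:88792015-88792264 (minus) for Lhcgr and chr8:71689002-71689213 (plus) for Insl3.
Hsd3b1: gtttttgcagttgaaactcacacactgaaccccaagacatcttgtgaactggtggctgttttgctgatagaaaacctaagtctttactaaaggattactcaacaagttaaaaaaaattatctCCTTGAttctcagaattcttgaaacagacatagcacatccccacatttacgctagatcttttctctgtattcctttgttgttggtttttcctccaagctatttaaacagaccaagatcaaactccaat
Fdx1: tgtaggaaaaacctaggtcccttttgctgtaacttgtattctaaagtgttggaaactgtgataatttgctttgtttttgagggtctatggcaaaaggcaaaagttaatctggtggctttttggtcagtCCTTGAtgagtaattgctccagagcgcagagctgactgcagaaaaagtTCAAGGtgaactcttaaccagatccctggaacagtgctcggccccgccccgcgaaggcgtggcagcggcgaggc
Lhcgr: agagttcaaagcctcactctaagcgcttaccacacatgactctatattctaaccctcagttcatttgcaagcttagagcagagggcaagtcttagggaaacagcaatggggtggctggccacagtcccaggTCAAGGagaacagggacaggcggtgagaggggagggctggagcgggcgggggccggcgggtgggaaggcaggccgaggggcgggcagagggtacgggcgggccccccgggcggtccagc
Insl3: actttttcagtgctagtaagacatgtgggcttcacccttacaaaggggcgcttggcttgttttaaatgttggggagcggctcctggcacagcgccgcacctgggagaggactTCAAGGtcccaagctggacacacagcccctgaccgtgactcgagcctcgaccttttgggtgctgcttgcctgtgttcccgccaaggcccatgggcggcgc
Fdx1 held 2 matches and the other 3 genes 1 each. On either strand, TCAAGG was present in 12.46% of 32851 RefSeq windows of 250 bases, and the longer CAAGGTCA, which overlaps it, in 1.333% of them and in 0 of the 8 genes. These matches are a description of the letters and show no binding.

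Over whole libraries the androgen genes differed in when they were found. Hsd3b1 was already higher at PND7 than at ED16.5 and higher again at PND14. Cyp11a1, Cyp17a1, Mgarp, Lhcgr, Insl3 and Star were low at both early ages and high at PND14. Fdx1 and Fdxr were found at every age and were highest at PND14, and Por differed little. A gene is counted as different here when its levels are at least 2-fold apart on the scale of CPM + 10, which understates changes of low genes, with at least 10 UMIs in both groups together. From ED16.5 to PND7, 1 of the 8 members with enough counts was higher (Hsd3b1), against 3.18% of all genes measured, and 0 were lower, against 1.42%. From PND7 to PND14, 8 of 10 were higher, all but Fdxr and Por, against 0.457% of all genes, and 0 were lower, against 0.804%. Between the ends, PND14 against ED16.5, 9 of 10 were higher, against 3.14% of genes, and 0 were lower, against 2.22%. These comparisons share libraries and are not independent. Without the 41 steroidogenic-like cells, 3 of 10 members (Cyp11a1, Hsd3b1 and Mgarp) were higher at PND14 than at PND7, against 0.338% of genes. Of the 10, 0 were lower, against 0.734% of genes. These 3 genes were also found in more endothelium-like cells at PND14. Cyp11a1 went from 0 of 21 to 3 of 28 of them, Hsd3b1 from 1 to 14 and Mgarp from 0 to 6. The part of RNA from steroidogenic-like cells in these counts was not tested.

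**Figure D1:**
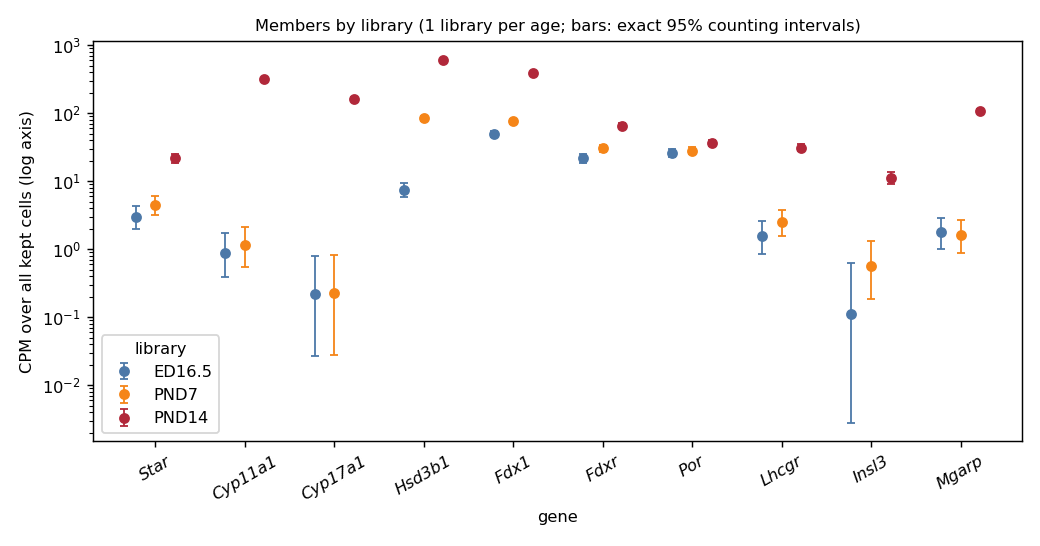
Level of each gene in CPM over all kept cells (log axis) in the 3 libraries, 1 point per library with its exact 95% counting interval. Hsd3b1 is higher at each later age, from 7.47 to 83.6 and 598 CPM, while the points of Cyp11a1 and Cyp17a1 at ED16.5 and PND7 lie within each other's intervals and far below PND14.

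Star, the cholesterol carrier, had 27 UMIs at ED16.5, 39 at PND7 and 197 at PND14, or 3.01, 4.46 and 21.8 CPM. The PND14 level was 4.87-fold that of PND7 (95% interval 3.44 to 7.06), while the PND7 level was 1.48-fold that of ED16.5 with an interval that includes no change (0.885 to 2.52). Steroidogenic-like cells held 148 of the 197 UMIs at PND14, at 167 CPM (141 to 197). Next came surface-epithelium-like cells, named by Upk3b, Krt19 and other markers of the ovarian surface, with 37 UMIs in 12 cells, or 115 CPM (81.0 to 159). The intervals of these neighbours in the order overlap. Star was found in 10 of the 12 surface-epithelium-like cells at PND14 and in 9 of 15 at PND7, where they had 64.4 CPM (39.9 to 98.5) and 53.8% of the library's Star UMIs. No such cluster was found at ED16.5, when the highest level was in granulosa-like cells, at 10.5 CPM (19 UMIs in 13 of 87 cells). Of those 19 UMIs, 11 came from the 21 cells that also carried a UMI of the surface genes Upk3b or Upk1b, a split made after seeing the data, and these stood at 21.2 CPM against 6.19 CPM in the other 66 cells. Without the steroidogenic-like cells, Star at PND14 was 1.34-fold its PND7 level (0.864 to 2.101), an interval that includes no change.

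Cyp11a1, the side-chain cleavage enzyme, had 8, 10 and 2904 UMIs at the 3 ages, or 0.892, 1.14 and 320.8 CPM. The ratio of PND14 to PND7 was 280 (152 to 585), and that of PND7 to ED16.5 was 1.28 (0.456 to 3.74). At PND14 steroidogenic-like cells held 95.04% of the UMIs, 2760 in 40 of 41 cells, at 3121 CPM (3006 to 3240). Granulosa-like cells followed at 33.3 CPM (25.1 to 43.4), then surface-epithelium-like cells at 18.6 and theca-like cells at 18.0 CPM, whose intervals overlap each other. Theca-like cells of PND7 had 0 Cyp11a1 UMIs in 32 cells, which allows up to 5.66 CPM. The 10 UMIs of PND7 lay in 3 cells of an unnamed cluster (6 UMIs) and 4 granulosa-like cells (4 UMIs). That cluster, number 2, was led by mitotic genes (Pimreg, Tubb6, Mxd3) and had 4 hedgehog-responsive theca markers at least 2-fold higher, Hhip, Ptch1, Gli1 and Enpep. Cyp11a1 overlaps the long noncoding gene Gm17322 on the same strand, and reads from both cannot be told apart here.

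The electron donors had far more UMIs at ED16.5 and PND7 than the 8 and 10 of the enzyme they serve. Fdx1 (ferredoxin) had 443, 663 and 3580 UMIs, or 49.4, 75.9 and 395 CPM, and Fdxr (its reductase) had 195, 268 and 594 UMIs, or 21.8, 30.7 and 65.6 CPM. Of the 24 combinations of class and library with 10 or more cells, Fdxr had counts in each and Fdx1 was missing from 1, the erythroid-like cells of PND7. At ED16.5 granulosa-like cells had 92.8 CPM of Fdx1 and 74.6 CPM of Fdxr, and germ-cell-like cells had 99.5 CPM of Fdx1 but 4.61 CPM of Fdxr. In the steroidogenic-like cells of PND14 both were far above the next class, which was the theca-like one. Fdx1 stood at 3203 CPM (3086 to 3323) against 137 CPM, and Fdxr at 380 (340 to 423) against 61.5 CPM. Without the steroidogenic-like cells the PND14 to PND7 ratio was 1.21 (1.09 to 1.34) for Fdx1 and 1.03 (0.864 to 1.23) for Fdxr. Fdxr at PND14 was 3.02-fold its ED16.5 level over all cells and 1.97-fold (1.66 to 2.33) when erythroid-like and germ-cell-like cells, 142 and 69 of the 456 cells at ED16.5, were left out.

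Of Cyp11a1, Hsd3b1 and Cyp17a1, Hsd3b1 was the earliest to stand out, although the reductase Fdxr was higher in granulosa-like cells of ED16.5, as given above. Among the enzymes of the set, Hsd3b1 had at PND14 the largest share of its UMIs in granulosa-like cells. Its UMIs numbered 67 at ED16.5, 730 at PND7 and 5414 at PND14, or 7.47, 83.6 and 598 CPM. Each later library was higher, 11.2-fold (8.70 to 14.6) at PND7 and a further 7.16-fold (6.62 to 7.74) at PND14. Granulosa-like cells held 91.0% of its UMIs at ED16.5, 59.2% at PND7 and 25.7% at PND14, when steroidogenic-like cells held 69.6%. Within granulosa-like cells the level was 33.7 CPM (25.8 to 43.3) at ED16.5, 220 (200 to 242) at PND7 and 841 (798 to 887) at PND14. The later ages were 6.54-fold (4.99 to 8.70) and 3.82-fold (3.43 to 4.26) above the age before, with intervals that do not overlap. Different clusters hold most granulosa-like cells at each age, cluster 8 at ED16.5, cluster 7 at PND7 and cluster 6 at PND14. At PND7 the 6 cells of cluster 6 stood at 846 CPM and the 82 of cluster 7 at 172 CPM, and at PND14 the corresponding levels were 895 CPM in 87 cells and 192 CPM in 8 cells. Within each cluster the intervals of both ages overlap.

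**Figure D2:**
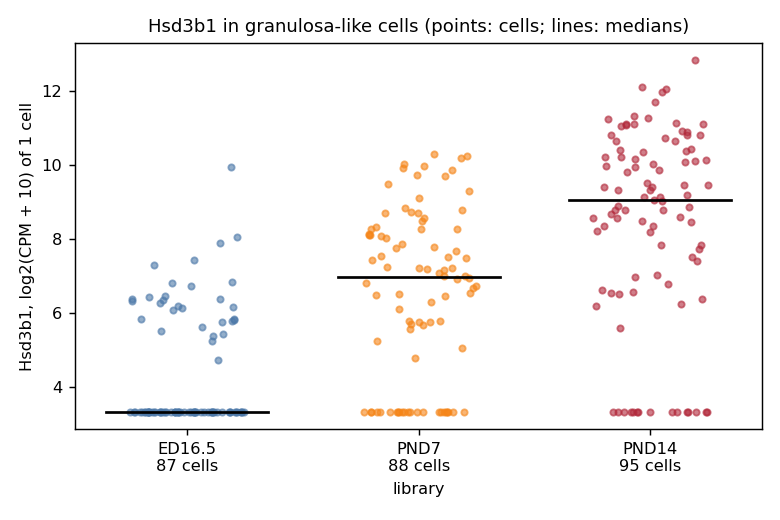
Hsd3b1 in each granulosa-like cell, as log2(CPM + 10) of 1 cell, by library (87, 88 and 95 cells). Lines are at the medians, near 0, 114 and 516 CPM, and the median counts are 0, 2 and 10 UMIs per cell. At ED16.5 most cells carry no Hsd3b1 UMI, and at PND14 the highest point is at 7215 CPM.

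After thinning every cell to 5000 UMIs, 16.1%, 54.5% and 73.7% of granulosa-like cells carried Hsd3b1 at the 3 ages (34.5%, 73.9% and 84.2% unthinned). Endothelium-like cells, which are not known to make steroids, served as the background class. Their thinned shares were 0%, 0% and 10.7% (1 of 19, 1 of 21 and 14 of 28 cells unthinned), at median depths of 22343, 23381 and 21538 UMIs against 16854, 17833 and 12623 in granulosa-like cells. The granulosa-like share was above this background at PND7 and PND14, with intervals that do not overlap. At ED16.5 the exact interval of endothelium-like cells reached 17.6% and overlaps, while the CPM, 33.7 in granulosa-like and 2.03 (0.0514 to 11.3) in endothelium-like cells, do not overlap. At PND14, granulosa-like cells with no UMI of Cyp11a1, Cyp17a1 or Star still stood at 771 CPM (714 to 831, 60 cells). In the theca-like class of PND7, 2 of 32 cells had 69 and 23 of its 97 UMIs, and 55.2 CPM of its 183 CPM remained without the higher of these. Theca-like cells of PND14 stood at 42.0 CPM (31.7 to 54.5). The 12 germ-cell-like cells of PND7, oocytes with Zp3 and a median of 81812.5 UMIs, held 75 Hsd3b1 UMIs in 8 cells, and the highest of them, with 27, also had 19 Amh, 29 Inha and 14 Foxl2 UMIs, transcripts of granulosa cells. The part of granulosa RNA in its value was not tested. Hsd3b1 lies at chr3:98852194-98859794 on the minus strand in a cluster of related genes whose reads could be split between them. Of these, Hsd3b6 had 8, 16 and 44 UMIs and Hsd3b2 1, 1 and 3, and 33 of the 44 Hsd3b6 UMIs of PND14 lay in 1 steroidogenic-like cell.

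Cyp17a1, the enzyme that commits steroids to androgens, was, with Cyp11a1, found in number at PND14 and barely before. It had 2 UMIs at ED16.5, 2 at PND7 and 1479 at PND14, or 0.223, 0.229 and 163 CPM. The ratio of PND14 to PND7 was 714, with a wide interval (197 to 5897) set by the 2 early counts. At PND14, 95.8% of its UMIs were in steroidogenic-like cells, 1417 in 38 of 41 cells, at 1602 CPM (1520 to 1688). The 4 early UMIs were each in a different granulosa-like cell. Theca-like cells of PND7 had 0 UMIs, and of the 15 in theca-like cells of PND14, 12 were in 1 cell. Por, which serves other microsomal cytochromes as well, had 232, 247 and 332 UMIs, or 25.9, 28.3 and 36.7 CPM. Its ratio of PND14 to PND7 was 1.30 (1.10 to 1.54), and without the steroidogenic-like cells 1.04 (0.866 to 1.25). In steroidogenic-like cells Por stood at 104 CPM (83.9 to 128), and the intervals of surface-epithelium-like cells at 87.0 CPM (57.8 to 126) and smooth-muscle-like cells at 76.1 CPM (48.2 to 114) overlap it. Reads of Por could be mixed with those of Gm43091 and Gm16061, which overlap it on the other strand, because the counting by strand is not given in the sources used here.

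Lhcgr, the LH receptor, had 14, 22 and 282 UMIs, or 1.56, 2.52 and 31.1 CPM, and was 12.4-fold higher at PND14 than at PND7 (8.01 to 20.1). Steroidogenic-like cells held 73.8% of it at PND14, 208 UMIs in 34 of 41 cells, at 235 CPM (204 to 269). Granulosa-like cells stood at 17.6 CPM (11.8 to 25.2), theca-like cells at 15.8 (9.75 to 24.1) and endothelium-like cells at 2.84 CPM (0.344 to 10.2). The granulosa-like and theca-like intervals overlap, and the first does not reach that of endothelium-like cells. Within granulosa-like cells Lhcgr was 8.61-fold higher at PND14 than at PND7 (3.02 to 33.7), from 4 to 29 UMIs, with 9 of the 29 in 1 cell. Without the steroidogenic-like cells the library ratio was 3.60 (2.21 to 6.08).

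Insl3, the peptide hormone, was found almost entirely in the same cells. It had 1, 5 and 101 UMIs, or 0.112, 0.572 and 11.2 CPM, a PND14 to PND7 ratio of 19.5 (8.08 to 61.3). Steroidogenic-like cells held 95 of the 101, in 26 of 41 cells, and granulosa-like and endothelium-like cells of PND14 held 0, which allows up to 1.82 and 4.26 CPM. The 5 UMIs of PND7 were in 3 cells, 3 and 1 in cells of the mitotic cluster 2 and 1 in a theca-like cell. Insl3 was at the edge of the 2-fold rule between PND7 and PND14, and with all deposited barcodes kept it was below it. Insl3 overlaps Jak3 on the same strand, so that a part of its counts could belong to Jak3. Mgarp had 16, 14 and 989 UMIs, or 1.78, 1.60 and 109 CPM, and its PND14 to PND7 ratio was 68.2 (40.4 to 125). All 41 steroidogenic-like cells carried it, with 869 UMIs at 983 CPM (918 to 1050), and granulosa-like cells stood at 33.3 CPM (25.1 to 43.4).

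**Figure D3:**
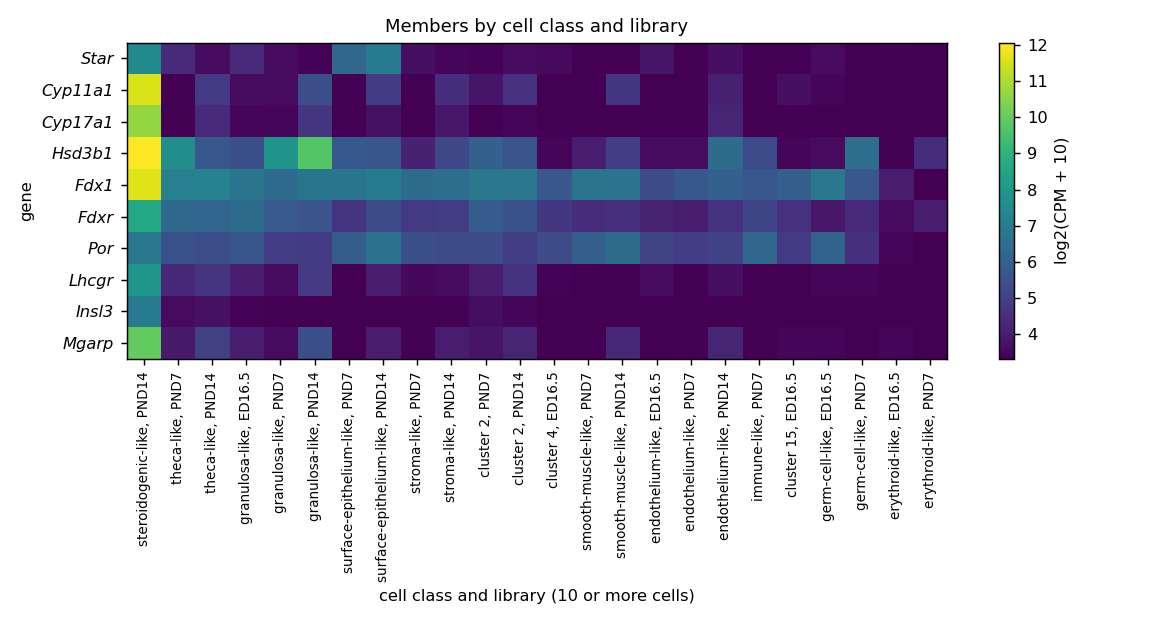
Levels of the 10 genes as log2(CPM + 10), in colour, for each class with 10 or more cells in each library (24 columns). The steroidogenic-like column is the brightest for each gene, Por included, at 104 CPM, and Hsd3b1 is also bright in granulosa-like cells and Star in surface-epithelium-like cells.

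The 4 steps Star, Cyp11a1, Hsd3b1 and Cyp17a1 were next followed in single cells. No cell had UMIs of all 4 at ED16.5 or PND7 (0 of 456 and 0 of 509, which allow shares of up to 0.658% and 0.589%), and none had 3. These limits are for cells with a UMI of each gene, not for cells expressing them, since low genes are often missed in a cell. At PND14, 29 of 583 cells had all 4, of which 28 were steroidogenic-like and 1 surface-epithelium-like. After thinning to 5000 UMIs the number was 15. At ED16.5 the commonest patterns were Hsd3b1 alone in 31 cells and Star alone in 16, and at PND7 Hsd3b1 alone in 93 cells and Star alone in 16. Cyp11a1 with Hsd3b1 was found in 2 cells at ED16.5 and 6 at PND7. Thus by count Hsd3b1 came first of the 4 steps, in granulosa-like cells, a class that at ED16.5 also had surface epithelium markers, as given above. Star was found early at low levels, and at PND7 mostly in surface-epithelium-like cells. At ED16.5 Star in granulosa-like cells (10.5 CPM, 6.32 to 16.4) was not told apart from endothelium-like cells (4.06 CPM, 0.491 to 14.7). Cyp11a1 with Cyp17a1 was found in number only in the PND14 library, mostly in the steroidogenic-like cells (37 of 41). Granulosa-like cells of PND14 had both in 10 of 95 cells, where the separate shares give 5.26, and endothelium-like cells in 1 of 28. The part of released RNA in these was not tested. In the 41 steroidogenic-like cells, 9 lacked just Star, 3 lacked just Cyp17a1 and 1 lacked both Star and Cyp11a1. Thinned shares in them were 41.5% for Star, 97.6% for Cyp11a1, 100% for Hsd3b1 and 85.4% for Cyp17a1 (75.6%, 97.6%, 100% and 92.7% unthinned), and in endothelium-like cells 0%, 7.14%, 10.7% and 3.57%.

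A few cells before PND14 carried several of the genes, and they were looked up after the values were seen. At PND7 a theca-like cell had 69 Hsd3b1, 22 Fdx1, 4 Star, 2 Lhcgr and 1 Insl3 UMIs with 6 Hhip UMIs, and no Cyp11a1 or Cyp17a1. A cell of the mitotic cluster 2 had 51 Hsd3b1, 4 Cyp11a1, 3 Insl3 and 3 Mgarp UMIs together with 3 Hhip, 6 Ptch1 and 3 Gli1 UMIs. Another pair in that cluster had 1 Cyp11a1 UMI each with 12 and 6 Hsd3b1 and 5 and 2 Lhcgr UMIs. Granulosa-like cells carried such sets too. At ED16.5, 1 of them had 1 UMI each of Cyp11a1, Hsd3b1, Lhcgr and Insl3, and a few others had Hsd3b1, Lhcgr and Mgarp. At PND7 a granulosa-like cell had 23 Hsd3b1, 1 Star and 1 Lhcgr UMIs with 16 Amh, 29 Inha and 22 Foxl2 UMIs. None of these early cells had Cyp17a1. When cells were instead gated one by one on the fixed markers, 46 cells of PND14, 15 of PND7 and 3 of ED16.5 met the rule, and 35 of the 64 were among the 41 clustered cells.

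**Figure D4:**
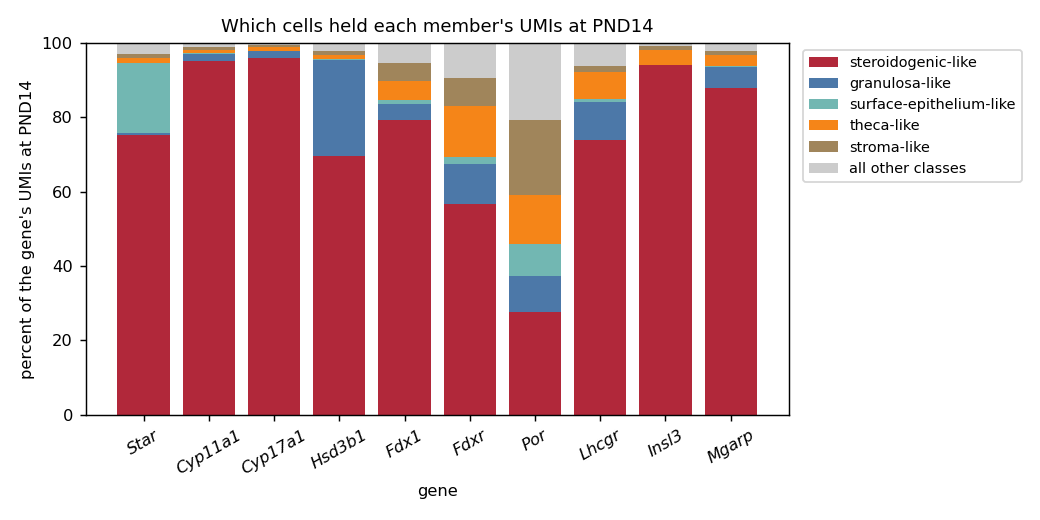
Percent of each gene's UMIs at PND14 that came from each cell class (stacked bars from 0 to 100). Steroidogenic-like cells held between 27.7% (Por) and 95.8% (Cyp17a1), granulosa-like cells 25.7% of Hsd3b1 and surface-epithelium-like cells 18.8% of Star.

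Low counts outside the steroidogenic-like cells were also read as UMIs per Cyp11a1 UMI in each class of PND14, since in droplet data RNA released from broken cells adds UMIs to every droplet. Cyp17a1 had 0.513 UMIs per Cyp11a1 UMI in steroidogenic-like cells (0.481 to 0.548), 0.491 in granulosa-like cells (0.298 to 0.792), 0.625 in theca-like (0.305 to 1.24) and 0.370 in stroma-like cells (0.160 to 0.790). These intervals overlap. The mitotic cluster 2, with 1 Cyp17a1 and 14 Cyp11a1 UMIs, stood lower, at 0.0714 (0.00169 to 0.469). That interval lies below the steroidogenic-like one but overlaps those of granulosa-like, theca-like and stroma-like cells. Endothelium-like, surface-epithelium-like and smooth-muscle-like cells, with 5 or 6 Cyp11a1 UMIs, had wide intervals that include the steroidogenic-like one. Cyp17a1 was carried by 20 of 95 granulosa-like cells (21.1%, thinned 9.47%) and 6 of 28 endothelium-like cells (21.4%, thinned 3.57%). The levels, 16.4 CPM (10.8 to 23.8) and 8.51 CPM (3.12 to 18.5), have overlapping intervals, so Cyp17a1 in granulosa-like cells was not told apart from the background class at this depth. Cyp11a1 was carried by 25 of 95 granulosa-like cells (26.3%, thinned 14.7%) and 3 of 28 endothelium-like cells (10.7%, thinned 7.14%). Its level of 33.3 CPM in granulosa-like cells lies above the 7.09 CPM of endothelium-like cells (2.30 to 16.5), beyond their intervals. How much of either gene's count in granulosa-like cells was RNA released from steroidogenic-like cells was not tested. Mgarp had 0.315 UMIs per Cyp11a1 UMI in steroidogenic-like cells (0.291 to 0.340) but 1.00 in granulosa-like (0.675 to 1.48) and 1.21 in theca-like cells (0.679 to 2.17), and 1.20 in endothelium-like cells (0.305 to 4.97), where the lower bound is within the steroidogenic-like interval. Lhcgr had 0.0754 (0.0651 to 0.0868) against 0.527 (0.324 to 0.841) in granulosa-like and 0.875 (0.463 to 1.64) in theca-like cells. Star had 0.0536 (0.0451 to 0.0633) against 6.17 (2.58 to 17.9) in surface-epithelium-like cells. Hsd3b1 had 1.37 (1.30 to 1.44) against 25.3 (19.3 to 33.7) in granulosa-like cells. Endothelium-like cells, with 5 Cyp11a1 UMIs, stood at 10.6 for Hsd3b1 (4.27 to 34.0) and at 0.400 for Lhcgr (0.0381 to 2.44), and 34 of their 53 Hsd3b1 UMIs were in 1 cell. The background class thus also differed from the steroidogenic-like ratio for Hsd3b1, and these ratios do not tell expression from released RNA.

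Among themselves the 41 steroidogenic-like cells varied widely. Hsd3b1 ranged from 9 to 452 UMIs per cell with a median of 72, Cyp11a1 from 0 to 247 with a median of 53, and Cyp17a1 from 0 to 196 with a median of 19. Star had a median of 2 UMIs and a highest of 19, Lhcgr 3 and 45, and Insl3 1 and 10. Over these cells, which share a library and differ in depth, Cyp11a1 and Cyp17a1 went together most closely (Spearman's rho of the CPM 0.75), followed by Cyp11a1 and Lhcgr (0.57) and Cyp17a1 and Fdx1 (0.55). Star was hardly related to Cyp11a1 (0.14) or Cyp17a1 (0.14). Insl3 was unrelated to Mgarp (-0.15) and Hsd3b1 (-0.15), at counts too low to read more from it. Lhcgr and Insl3 were both found in 24 cells, where their separate shares give 21.6.

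**Figure D5:**
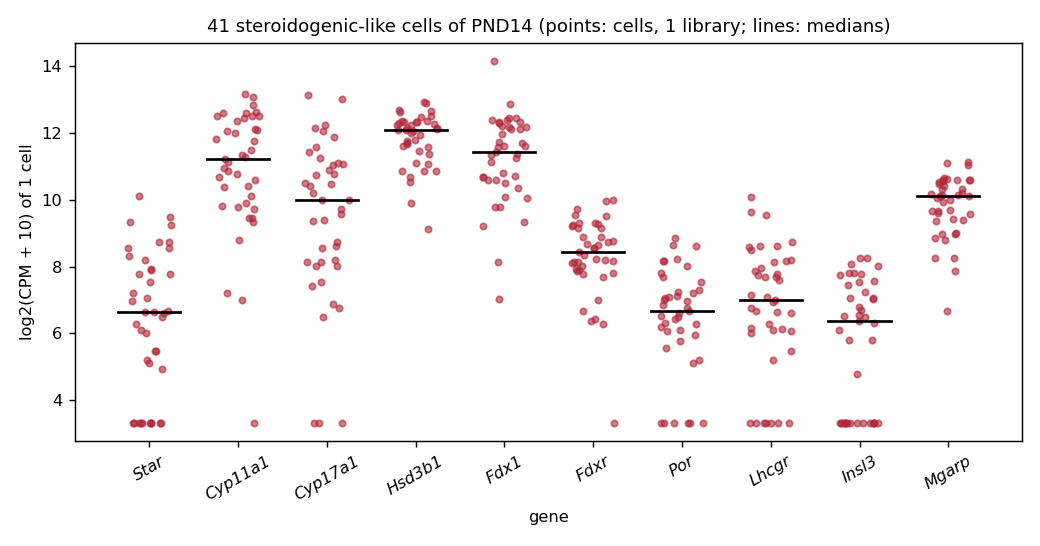
Each of the 41 steroidogenic-like cells of PND14 as a point, as log2(CPM + 10) of 1 cell, with lines at the medians. Hsd3b1 and Mgarp are above 0 in every cell (lowest 9 and 2 UMIs), while 10 or more cells lie at the floor for Star and Insl3, which were found in 31 and 26 cells.

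Compared with all other PND14 cells, the steroidogenic-like cells had 10 of 10 members at least 2-fold higher, against 3.18% of all genes, and compared with theca-like cells again 10 of 10, against 7.14%, and 0 were lower in either, against 4.67% and 3.58%. The folds over theca-like cells were 173 for Cyp11a1 (116 to 271), 142 for Cyp17a1 (86.1 to 255), 102 for Hsd3b1 (77.99 to 135), 14.9 for Lhcgr (9.52 to 24.6) and 3.15 for Por (2.18 to 4.62). At PND14 the theca-like class with hedgehog targets held between 0.826% (Cyp11a1) and 13.8% (Fdxr) of each gene's UMIs. Around these members, 5 lists of pathway genes were read in the same contrast with the other PND14 cells.

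Cholesterol supply was the list with most genes on the higher side, 6 of 10 higher and 0 lower, and its median log2 ratio was 1.32 against -0.08 over all genes. Among these were Scarb1 at 9.25-fold (8.37 to 10.2), Soat1 (which esterifies cholesterol for storage) at 3.89-fold (3.49 to 4.34) and Sqle (an enzyme of cholesterol synthesis) at 3.26-fold (2.24 to 4.67). Scarb1 is also among the markers that named the cells. The lowest of the list was Npc2, at 256 against 287 CPM. Over whole libraries from PND7 to PND14, Scarb1 alone of this list was 2-fold higher, 2.24-fold (2.05 to 2.46).

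Of the other steroid enzymes and carriers, 4 of the 13 with enough counts were higher and 2 lower, and the median log2 ratio was -0.17. Srd5a1, which reduces testosterone and progesterone at ring A, was 13.9-fold higher (9.63 to 20.1), at 88.2 against 6.37 CPM. Hsd17b7 was 4.28-fold higher (2.35 to 7.54) and the mitochondrial cytochrome gene Cyb5b 2.76-fold (2.24 to 3.38). Hsd3b6 was higher through the 1 cell named above. Hsd17b1, the granulosa enzyme that makes oestradiol from oestrone, was 9.87-fold lower, at 5.65 against 55.8 CPM, and Hsd11b2 was 3.24-fold lower. Between libraries, 0 of the 14 with enough counts differed 2-fold from PND7 to PND14. From ED16.5 to PND7, Hsd17b1 went from 2 to 289 UMIs and Cyb5a, whose product aids the lyase reaction of CYP17A1, from 137 to 368 CPM, 2.69-fold (2.52 to 2.88).

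Transcription regulators of these genes were split, 2 of 16 higher and 4 lower in steroidogenic-like cells, and the median log2 ratio was -0.09. Nr5a1, which encodes the steroidogenic factor named above, was 6.03-fold higher (5.08 to 7.16), at 256 against 42.4 CPM. Nr0b2 was 12.3-fold higher on 16 UMIs (5.47 to 28.5). Nr5a2, a relative of Nr5a1 known in granulosa cells, was lower, at 4.52 against 77.1 CPM. Tcf21 was lower at 15.8 against 296.5 CPM, Wt1 at 15.8 against 159 CPM and Gata6 at 9.05 against 60.2 CPM. Tcf21 and Wt1 are known in gonadal progenitor, stromal and supporting cells. Between libraries 0 of 16 differed 2-fold from PND7 to PND14, and 3 were higher at PND7 than at ED16.5, among them Nr5a2 at 21.0-fold (13.1 to 35.9) and Tcf21 at 2.33-fold (2.14 to 2.54).

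In the cAMP pathway, through which LHCGR signals, 3 of 16 genes were higher and 1 lower, and the median log2 ratio was -0.02. The higher genes were Prkar2b and Prkar1a, regulatory subunits of protein kinase A, and Akap1, an anchor protein of mitochondria. Prkar2b was at 3.39-fold (3.05 to 3.76), Prkar1a at 2.09-fold (1.83 to 2.37) and Akap1 at 3.05-fold (2.02 to 4.51). The third regulatory subunit on the list, Prkar2a, was not past the 2-fold rule, at 9.05 against 24.5 CPM. Adcy7, an adenylyl cyclase, was 5.97-fold lower, at 9.05 against 54.0 CPM. Prkar2b was also the gene of this list that was 2-fold higher between PND7 and PND14 over whole libraries, 2.39-fold (2.19 to 2.60). In granulosa-like cells it was 3.84-fold higher at PND14 than at PND7 (3.36 to 4.41). The receptors of INSL3 and relaxin had too few counts to compare, with Rxfp2 at 1 UMI and Rxfp1 at 0 in the PND14 library.

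In granulosa-like cells, 5 of the 8 members with enough counts were at least 2-fold higher at PND14 than at PND7, against 1.29% of genes, and 0 were lower, against 1.17%. They were Hsd3b1, Lhcgr, Mgarp, Cyp11a1 and Cyp17a1. Each was also found in more endothelium-like cells at PND14, Cyp17a1 in 0 of 21 and then 6 of 28, and Lhcgr in 0 and then 2. The part of released RNA in these rises was not tested. Cyp17a1 went from 2 to 27 UMIs, the count set beside endothelium-like cells above. Cyp19a1 (aromatase) was 4.39-fold higher (2.14 to 9.91), from 10 to 37 UMIs. From ED16.5 to PND7, 1 of 7 members was higher in these cells, Hsd3b1, against 3.31% of genes, and 0 were lower, against 5.08%. Nr5a2 went from 4.97 to 169 CPM in them. It is also on the granulosa marker list, and was among the higher markers that named clusters 6 and 7 but not cluster 8.

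The genes whose pattern was most like the mean of Star, Cyp11a1, Cyp17a1 and Hsd3b1 were ranked over the 24 combinations of class and library with 10 or more cells, by Pearson's correlation of log2(CPM + 10). Outside the members these were Hao2 (0.94), Bpifb4 (0.93), Bpifb5 (0.91), Sftpc (0.91), Serpina5 (0.90), Sez6l2 (0.90), Slc25a35 (0.89) and Tubb3 (0.88). Bpifb4 and Serpina5 are leading genes of the steroidogenic-like cluster. Of the members outside that mean, Mgarp reached 0.95, Lhcgr 0.94, Insl3 0.90, Fdx1 0.84, Fdxr 0.82 and Por 0.43. The 24 points share 3 libraries, and 1 of them, the steroidogenic-like cells, lies far from the rest. Over the 583 single cells of PND14 the closest genes were Cst8 (0.82), Bpifb4 (0.80) and Folr1 (0.74), and 2 of the 8 genes above were again among the first 8.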

How the data were processed

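Single-cell suspensions of collagenase-digested ovaries were made into droplet libraries of mRNA 3′ ends, 1 per age, sequenced on a shared lane, per the labels' protocols. The deposited tables give unnormalised UMI counts for each gene in each cell, produced by the authors with Cell Ranger 2.1.1 on GRCm38, per the submitters' processing notes. No source used here gives the annotation, the cell calling or the strand setting.

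Barcodes with under 200 genes or over 20% mitochondrial UMIs were removed (3, 1 and 2). Counts scaled to 10000 per cell and log-transformed were reduced from 2000 variable genes, members and pathway genes left out, to 30 principal components, 15 neighbours and Leiden clusters at resolution 1 (scanpy 1.11.5, leidenalg 0.10.2). A cluster was named when at least 3 markers of a class were 2-fold higher and at least 1 was among its 10 leading genes, with no other class ahead. UMIs were summed per class and library. Intervals are exact: Poisson for CPM, conditional binomial for ratios, Clopper-Pearson for shares, all at 95%. Doublets were not removed; Scrublet called 1, 3 and 3 cells and leaving them out was an alternative.

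Text names the members, pathway genes at least 2-fold apart or at a list's ends, and the 8 most similar genes; predicted genes appear only as overlaps, and some list genes are counted but not reported here by name. Pathway names come from textbook roles. Members, lists and markers were chosen with earlier results of these data known. The fold rule and ratio intervals were tried on simulated Poisson counts. Since the intervals assume such counts, this cannot check them against the clumping of UMIs in single cells or the spread between animals.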

Additional observations from a re-analysis of the deposited data

How the results depend on the processing

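No paired analysis was possible because each age has a single library. Leaving out the steroidogenic-like cells, chosen after seeing the data, took the members at least 2-fold higher from 8 to 3 from PND7 to PND14, and from 9 to 3 against ED16.5, since those cells hold most of the counts. Over the other alternatives the number was 6 to 9 from PND7 to PND14, where Star was not among them by the mean of each cell's CPM, and 7 to 9 against ED16.5. From PND7 to PND14 the share of all genes was 0.457% with all cells and 0.338% without the steroidogenic-like cells. Against ED16.5 it was 3.14% with all cells. The share against ED16.5 without those cells, and those under the other alternatives, are not given here. Gating single cells put 89.2% of the Cyp11a1 UMIs of PND14 in steroidogenic-like cells, against 95.04% by clusters. The share of these cells with Star was 19.5% at 2000 UMIs, 41.5% at 5000 and 75.6% unthinned, and with Cyp17a1 68.3% at 2000, so depth limits how often both steps are seen, and cells with all 4 steps at PND14 went from 29 to 15 when thinned to 5000. With a pseudocount of 1 CPM in place of 10, 4 list genes were higher and 2 lower from PND7 to PND14 (2 and 0 in the report), 9 higher and 1 lower from ED16.5 to PND7 (5 and 0), and 13 lower in steroidogenic-like cells (7). Correlating over single cells kept 2 of the 8 most similar genes. The causes of the gating and pseudocount differences were not tested. No value at least 2-fold apart changed direction under any alternative run. The same 41 steroidogenic-like cells were found at resolutions 0.6 and 1.5 and with each library clustered on its own, and 43, with those 41 among them, when the listed genes were kept among the variable genes. The log2 of the CPM ratio of Hsd3b1 in granulosa-like cells, with no pseudocount, lay between 2.42 and 2.88 for PND7 against ED16.5 (2.71 for the clusters of the report) and between 1.78 and 1.96 for PND14 against PND7 (1.93) under the alternatives run for it.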
